A study of Mus musculus with 7 samples.

Results

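Sox9, Runx2, Acan, Chad, Comp, Cytl1, Ibsp, Alpl, Bmp2 and Msx2 are 10 genes of cartilage and bone formation that can be read in the wall of a diseased artery, and they were described here across 7 libraries of mouse abdominal aorta. They were chosen by name, with earlier results of these data known. All 10 had a row among the 21878 genes of the count table and in the table of FPKM (fragments per kilobase of transcript, scaled for depth). The mice were C57BL/6 males, 8 weeks old per the labels, that received angiotensin II (Ang II), a pressor peptide used to induce aortic aneurysm, over at most 28 days. All 7 libraries were labelled as lacking the apolipoprotein gene Apoe. The genotype label was ApoE-/- for 3 of them, here ApoE 1 to 3. For the other 4, here DKO 1 to 4, it was ApoE-/-Nur77-/-, which adds loss of the nuclear receptor Nur77, encoded by Nr4a1. By these labels, the contrast addresses the effect of losing Nur77 in Ang II-exposed ApoE-/- aorta. Reads of Nr4a1 and Apoe, given below, did not match the labels, so the contrast cannot be taken as loss of Nur77 alone. No control without Ang II is among the libraries, and the length of exposure of each mouse is not given beyond its upper limit.

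Sox9 and Runx2 are the transcription factors that direct cells into the cartilage and the bone lineage. In arteries, smooth muscle cells can take up parts of these programmes, lay down cartilage-like matrix and, with alkaline phosphatase and bone matrix proteins, calcify it. Bone morphogenetic proteins (BMPs) are secreted ligands that act through receptor kinases and SMAD proteins, and Msx2 is one of the transcription factors they induce.

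Reads of the genes named as deleted did not match the genotypes. Nr4a1 was read at 193, 56.4 and 111 CPM (counts relative to the scaled library total) in ApoE 1 to 3 and at 46.2, 57.0, 90.1 and 92.7 CPM in DKO 1 to 4 (log2 fold change -0.75, edgeR adjusted p = 0.360). Apoe was read at 233, 250.3 and 184 CPM against 34.7, 18.3, 33.8 and 28.1 CPM (log2 fold change -2.95, edgeR adjusted p = 0.0227). Which exons the alleles remove is not stated in the labels, so every direction below is that of libraries labelled double knockout against libraries labelled ApoE-/-. Totals were 19295287 to 21727192 counts per library, and the floor of 3 counts lay at 0.133 to 0.164 CPM, for counting error alone. Whether each library is 1 mouse is not stated, so p-values measure the spread between libraries, which may be technical. Smooth muscle markers, which define the tissue, were present in every library (7975 to 28861 CPM summed over 7 genes). ApoE 3 and DKO 1 stood apart. ApoE 3 had 848 CPM of 6 summed atrial cardiomyocyte markers, against 222 CPM in ApoE 2 and 6.26 to 16.9 CPM elsewhere, and 112 CPM of 7 summed skeletal muscle markers. DKO 1 had 80.5 CPM of 5 summed neutrophil markers against 5.51 to 27.2 CPM elsewhere, 23.4 CPM of 7 summed bone marrow markers against 5.62 to 12.1 CPM elsewhere, and the lowest smooth muscle sum. In bulk tissue, fewer cells of a type and less RNA per cell cannot be told apart.

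The promoters of 3 of the genes are shown, since Alpl was the gene whose groups did not overlap, Chad varied most between libraries, and Ibsp had 1 library far from the rest. Each is the 250 bases before the start of the gene in RefSeq on GRCm38.p6, 5′ to 3′ on the gene's strand. Alpl lies at chr4:137796385-137796634 on the minus strand and is the upstream of 2 annotated starts, Chad lies at chr11:94564797-94565046 on the plus strand, and Ibsp lies at chr5:104299037-104299286 on the plus strand. Capitals mark exact matches, on either strand, to the letters searched. For the Nur77 element these were AAAGGTCA. A RUNX match was TGTGGT and, in a second form that was searched in the same way, TGCGGT. For the SOX factors the letters were ACAAAG, and the other form accepted for them was ACAATG. The BMP SMAD letters were GGCGCC, and those of the TATA box were TATAAA. Matches of different motifs did not overlap in these 3 promoters.
Alpl: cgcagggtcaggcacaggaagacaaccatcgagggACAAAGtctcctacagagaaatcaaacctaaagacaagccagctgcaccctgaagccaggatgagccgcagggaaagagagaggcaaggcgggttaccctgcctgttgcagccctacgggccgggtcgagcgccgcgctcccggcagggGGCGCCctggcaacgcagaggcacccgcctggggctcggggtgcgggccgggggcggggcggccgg
Chad: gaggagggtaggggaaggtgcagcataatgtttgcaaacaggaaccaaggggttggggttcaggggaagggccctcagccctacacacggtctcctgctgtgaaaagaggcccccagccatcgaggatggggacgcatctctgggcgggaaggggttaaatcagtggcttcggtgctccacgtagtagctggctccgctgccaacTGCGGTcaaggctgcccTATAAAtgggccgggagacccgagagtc
Ibsp: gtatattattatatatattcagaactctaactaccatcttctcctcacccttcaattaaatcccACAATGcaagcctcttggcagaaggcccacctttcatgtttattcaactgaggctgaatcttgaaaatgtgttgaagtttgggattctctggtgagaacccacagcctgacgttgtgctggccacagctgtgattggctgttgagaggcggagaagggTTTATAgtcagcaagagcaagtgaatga
The Chad promoter held a RUNX match 45 bases before the start and a TATA box 28 bases before it. In Ibsp the TATA box letters lay on the opposite strand 28 bases before the start, and a SOX match lay 186 bases before it. Alpl held a SOX match at 215 bases and the BMP SMAD letters, which read the same on both strands, at 66 bases. Promoters were found for 7 of the 10 genes, with 8 windows in all. Of these 8, 0 held the Nur77 element (1.34% of 32851 promoters of the same length), 2 held RUNX letters (18.6% of all), 3 held SOX letters (25.2%), 1 held the BMP SMAD letters (9.59%) and 3 held the TATA box (12.4%). The SOX windows were those of Alpl, at each of its 2 starts, and of Ibsp. The TATA box windows were those of Alpl, Chad and Ibsp. For Alpl it lay in the window of the other start, which is not shown, on the opposite strand 192 bases before that start. These are matches of letters, not binding sites, and no measurement of binding was used.

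Per gene length, the 10 genes spanned levels from abundant to the limit of detection. Comp had a median of 87.5 FPKM (lowest 21.5, highest 166) and Cytl1 a median of 71.5 FPKM (36.0 to 127). The order of these 2 was not settled, as Comp was above Cytl1 in 5 of 7 libraries. Cytl1 was above Acan in 7 of 7 libraries, and Acan (median 6.14 FPKM, 2.85 to 17.2) was above Alpl (median 4.83 FPKM, 2.66 to 6.75) in 4 of 7. Chad (median 1.32 FPKM, 0.132 to 9.85) ranked above Bmp2 (median 2.08 FPKM, 1.50 to 4.85) by its mean alone, and exceeded it in 1 of 7 libraries. Bmp2 was above Sox9 in 7 of 7. Sox9 (median 0.846 FPKM, 0.618 to 1.98) and Runx2 (median 0.920 FPKM, 0.367 to 1.68) did not separate, with Sox9 the higher in 4 of 7. Runx2 was above Ibsp (median 0.240 FPKM, 0.101 to 1.33) in 7 of 7, and Ibsp was above Msx2 (median 0.163 FPKM, 0 to 0.782) in 4 of 7.

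**Figure D1:**
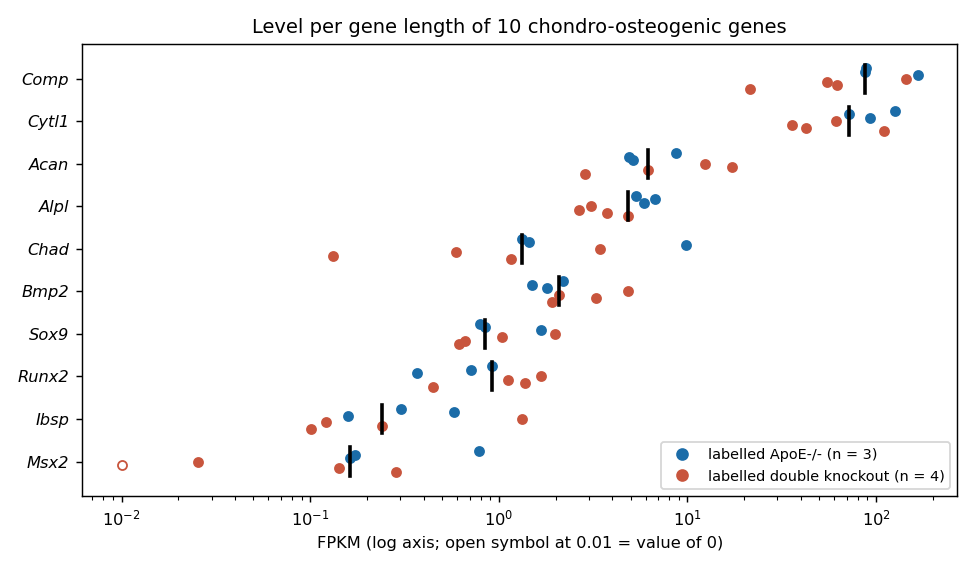
FPKM of each gene (log axis) in the 7 libraries, 1 point per library, blue for the 3 labelled ApoE-/- and red for the 4 labelled double knockout, with black bars at the median of all 7. Comp and Cytl1, with medians of 87.5 and 71.5 FPKM, lie above the other 8 genes, and the Msx2 value of 0 is drawn open at 0.01.

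Between the groups, 0 of the 9 genes that passed the filter on low counts were higher and 0 were lower in the libraries labelled double knockout at an adjusted p under 0.05 (edgeR quasi-likelihood test). Over all 14609 genes tested, the same rule called 0% higher and 0.0274% lower. At an unadjusted p under 0.05, 0 of the 9 were higher, where 8.00% of all genes were, and 1 was lower, where 11.8% of all genes were. The CPM of the groups did not overlap in the higher direction for 0 of the 9, beside 7.08% of all genes, and in the lower direction for 1, beside 9.24%. That gene was Alpl in each case. DESeq2 called 0 higher, beside 3.16% of all genes, and 1 lower (Alpl), beside 4.66%. The limma voom fit with sample quality weights called 0 higher, beside 6.17%, and 2 lower (Alpl and Cytl1), beside 10%. Of the 9 fold changes, 4 were positive and 5 negative, with a median of -0.07 on the log2 scale, and the median of all tested genes was -0.02. The shares over all genes given here are also those to set beside the counts of the wider lists below.

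**Figure D2:**
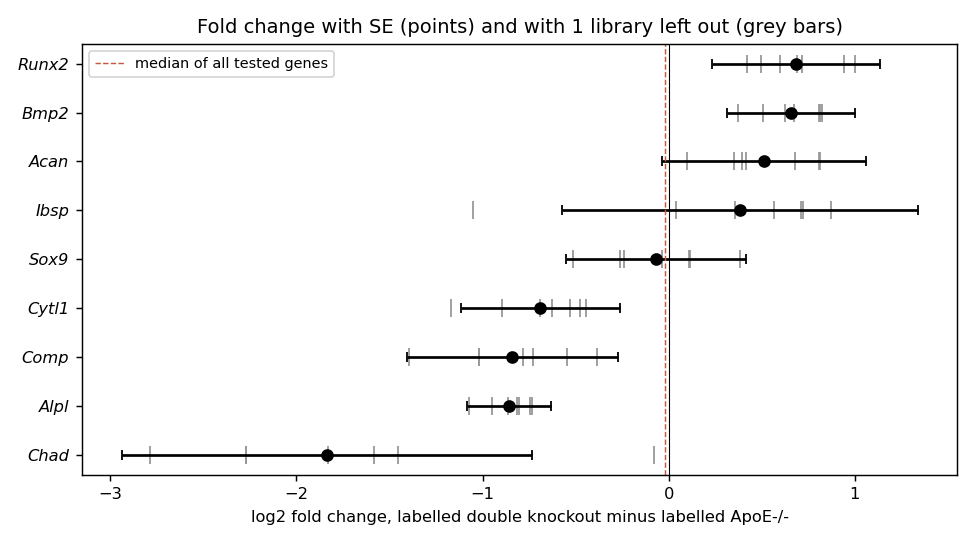
Fold change of the 9 tested genes on the log2 scale (x axis), labelled double knockout minus labelled ApoE-/-, with black points and bars for the edgeR value and its SE and grey bars for the value after leaving out each library in turn. The SE of Alpl (-0.86 ± 0.22) is the smallest, and single libraries move Chad to -0.08 and Ibsp to -1.05.

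Among the lineage regulators, Sox9 (chromosome 11, 112782210 to 112787757) was read at 3.47, 3.68 and 7.53 CPM in ApoE 1 to 3 and at 8.47, 4.55, 2.80 and 2.81 CPM in DKO 1 to 4. Each group had 1 high library, ApoE 3 and DKO 1, and the groups overlapped fully. The difference was -0.07 on the log2 scale (SE 0.48, edgeR adjusted p = 0.951). Its sign depended on single libraries, at 0.38 without ApoE 3, 0.11 without DKO 3 and 0.11 without DKO 4. Sox5 and Sox6, which act with Sox9 on cartilage genes, had values of 7.63 to 13.5 CPM and 11.6 to 26.2 CPM over the libraries, with log2 fold changes of 0.13 and -0.25.

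Runx2 (chromosome 17, 44495987 to 44814797) was read at 8.78, 6.34 and 3.76 CPM in ApoE 1 to 3 and at 14.3, 10.1, 12.0 and 4.14 CPM in DKO 1 to 4. DKO 1, DKO 2 and DKO 3 were above every library labelled ApoE-/-, while DKO 4 lay below 2 of the 3. Its log2 difference of 0.69 (SE 0.45, edgeR adjusted p = 0.426) was 0.21 without ApoE 3 and DKO 1. Runx2 overlaps genes on the opposite strand, among them Runx2os1, with which it shares exonic positions. The library kit marks strand, but no source says whether counting used it, so reads of the 2 genes may be mixed.

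The other RUNX genes and their partner were high in the same libraries. Runx1, the RUNX factor of blood cells, was at 36.4, 30.7 and 25.5 CPM in ApoE 1 to 3 and at 86.5, 58.8, 49.2 and 19.0 CPM in DKO 1 to 4. Runx3, active in T cells and neurons, was at 6.64, 7.58 and 3.44 CPM against 15.3, 9.52, 11.1 and 4.70 CPM. Cbfb, the shared partner of the RUNX factors on DNA, was at 41.0, 43.6 and 35.7 CPM against 71.7, 57.7, 58.6 and 32.6 CPM. For each of these, as for Runx2, DKO 1 to 3 were above all 3 libraries labelled ApoE-/- and DKO 4 was not. Of the 7 listed relatives, partner and repressors of Runx2, edgeR, DESeq2 and voom called 0 in either direction and 0 had an unadjusted edgeR p under 0.05 (median log2 fold change -0.01), and the repressor genes Twist1, Twist2, Hdac4 and Zfp521 had fold changes between -0.06 and -0.01. Macrophage markers, which come from cells that use Runx1, were at 925, 1131 and 790 CPM summed over 5 genes in ApoE 1 to 3 and at 1347, 1107, 1465 and 934 CPM in DKO 1 to 4, none of the 5 being at 0. DKO 1 and DKO 3 were above every library labelled ApoE-/-, while DKO 2 lay below ApoE 2. DKO 4 lay above ApoE 1 and ApoE 3 for these markers, whereas it was the lowest of all libraries for Runx1 and Cbfb. Per 1000 CPM of that sum, Runx2 was at 9.48, 5.61 and 4.77 CPM against 10.6, 9.10, 8.18 and 4.44 CPM, with overlapping groups. Their part in these values was not tested.

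Msx2 (chromosome 13, 53466881 to 53472780) had too few counts for the test, with 32, 7 and 8 counts in ApoE 1 to 3 and 1, 0, 7 and 11 in DKO 1 to 4. In CPM these were 1.59, 0.322 and 0.436 against 0.0479, 0, 0.311 and 0.562. ApoE 1 held the most counts, and the 0 of DKO 2 allows up to 0.141 CPM. The difference in mean CPM was within the spread of the libraries (exact two-sided permutation p = 0.171, where the smallest of 35 splits is 0.0286).

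Bmp2 (chromosome 2, 133552159 to 133562896), the BMP ligand that induces bone, was read at 8.28, 5.38 and 7.09 CPM in ApoE 1 to 3 and at 17.2, 7.59, 11.7 and 7.11 CPM in DKO 1 to 4. DKO 1 and DKO 3 were above all libraries labelled ApoE-/-, and DKO 2 and DKO 4 lay among them. On the log2 scale the libraries labelled double knockout were 0.66 higher (SE 0.35, edgeR adjusted p = 0.334), and 0.37 higher without DKO 1. The other BMP ligands did not share this direction as a list: of 8, 6 were tested, 3 were positive and 3 negative, and the median log2 fold change was -0.16. In edgeR 0 of them were called, with 1 higher and 1 lower at an unadjusted p under 0.05, and DESeq2 and voom each called 1 lower, Bmp3. Bmp3, a ligand that restrains bone formation, was at 19.1, 19.2 and 16.1 CPM against 7.71, 11.7, 7.41 and 7.62 CPM, without overlap (log2 fold change -1.07, SE 0.19, edgeR adjusted p = 0.120, DESeq2 adjusted p = 0.000247). Gdf6, a ligand of joint formation, was at 3.72, 5.65 and 4.53 CPM against 9.86, 16.8, 8.88 and 4.24 CPM (log2 fold change 1.10, edgeR adjusted p = 0.223), with DKO 4 again among the low libraries.

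Of 7 BMP receptors edgeR, DESeq2 and voom called 0, with 0 at an unadjusted edgeR p under 0.05 (median log2 fold change 0.07), with Bmpr2, the type II receptor, at 97.0 to 155 CPM and Acvrl1, the endothelial type I receptor, at 101 to 135 CPM. Of the 4 BMP SMADs the same tools called 0, with 1 higher at an unadjusted edgeR p under 0.05 (median 0.10). Smad1 was at 27.5 to 40.0 CPM, Smad5 at 64.4 to 87.3 CPM and Smad9 at 5.98 to 15.4 CPM. Among 12 antagonists and inhibitory SMADs edgeR and DESeq2 called 0 and voom called 2 lower, Fst and Chrd (median -0.06, 2 lower at an unadjusted edgeR p under 0.05). Of the 12, 5 were positive and 7 negative, with log2 fold changes from -1.07 to 2.20. Fst and Chrd, which bind and block the ligands, had log2 fold changes of -0.66 and -0.53 (edgeR adjusted p = 0.166 and 0.210). Of the 7 listed BMP targets 6 had negative fold changes, with a median of -0.26. There edgeR and DESeq2 called 0, with 1 lower at an unadjusted edgeR p under 0.05, and voom called 2 lower, Id1 and Id4. Id1, the direct target most used as a readout, was at 113, 61.2 and 71.2 CPM against 48.4, 34.0, 31.8 and 63.3 CPM (log2 fold change -0.88, SE 0.30, edgeR adjusted p = 0.184), and Id4 was at 20.5 to 32.2 CPM against 13.1 to 23.9 CPM. The libraries with the most Bmp2, DKO 1 and DKO 3, were not those with the most Id1.

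**Figure D3:**
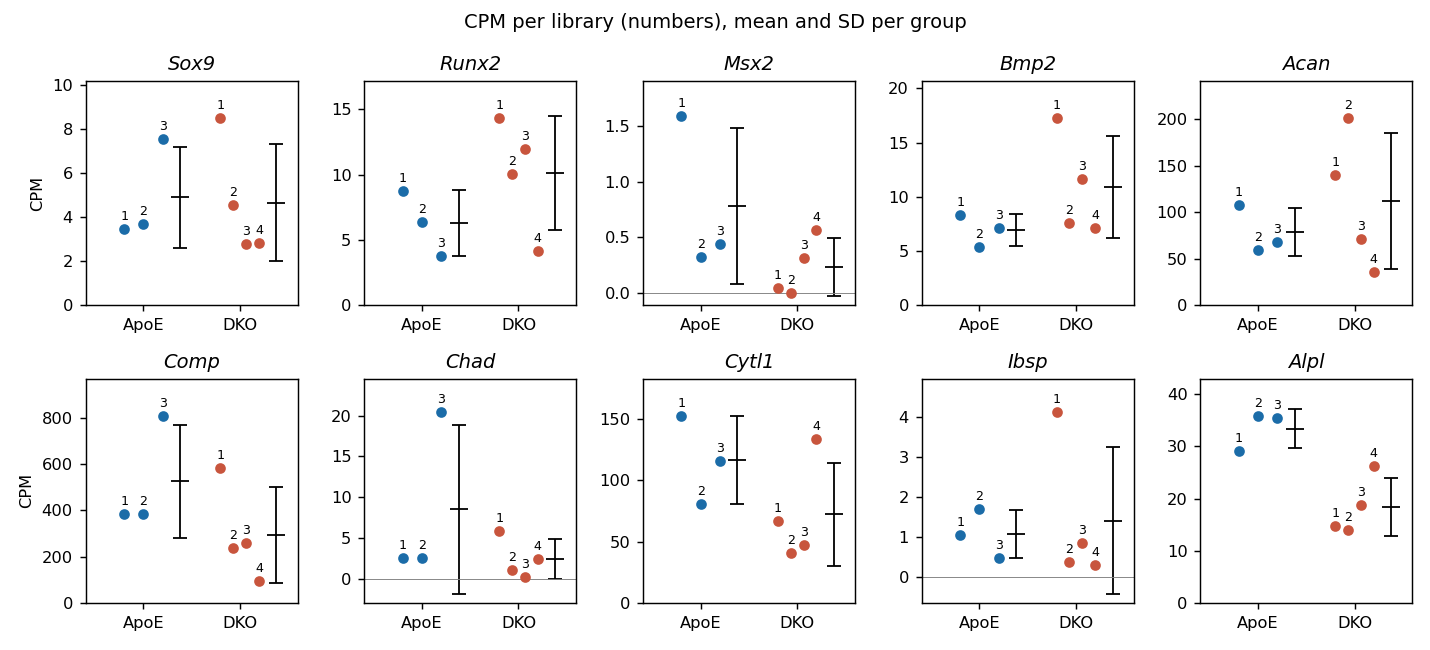
CPM of the 10 genes in each library, with linear axes, library numbers beside the points and a bar at each group's mean with its SD (3 libraries labelled ApoE-/-, 4 labelled double knockout). Alpl is the gene whose groups do not overlap (29.1 to 35.8 CPM against 14.1 to 26.2 CPM), and ApoE 3 or DKO 1 is the highest library for 6 of the 10.

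Cartilage matrix genes differed widely between libraries of the same label. Acan (chromosome 7, 79053226 to 79115099), the large proteoglycan of cartilage, was read at 108, 59.8 and 67.7 CPM in ApoE 1 to 3 and at 140.2, 201, 71.3 and 35.5 CPM in DKO 1 to 4. The libraries labelled double knockout held both the highest values, DKO 1 and DKO 2, and the lowest, DKO 4. Its log2 fold change of 0.51 (SE 0.55, edgeR adjusted p = 0.634) was within that spread and was 0.10 without DKO 2.

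Comp (chromosome 8, 70373548 to 70382066), the pentameric matrix protein of cartilage and tendon that arterial smooth muscle also makes, was read at 383, 384 and 807 CPM in ApoE 1 to 3 and at 583, 238, 258 and 94.8 CPM in DKO 1 to 4. ApoE 3 was the highest library and DKO 1 the next, while the other 3 labelled double knockout were below all labelled ApoE-/-. The log2 fold change of -0.84 (SE 0.57, edgeR adjusted p = 0.438) became -0.39 without ApoE 3 and -1.39 without DKO 1.

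Chad (chromosome 11, 94565047 to 94569127) encodes chondroadherin, a leucine-rich protein that attaches chondrocytes to collagen. It was read at 2.48, 2.53 and 20.5 CPM in ApoE 1 to 3 and at 5.84, 1.08, 0.222 and 2.35 CPM in DKO 1 to 4. ApoE 3 alone was 92.1 times DKO 3, the widest range of the 9 tested genes, and the remaining libraries of the groups overlapped. DKO 3 held only 5 counts, near the floor, against 375 in ApoE 3, so the size of this ratio is uncertain. Its log2 difference of -1.84 (SE 1.10, edgeR adjusted p = 0.386) was -0.08 without ApoE 3. Chad lies inside Acsf2 on the opposite strand without overlap of exons, so unspliced Acsf2 reads could enter its counts only if strand was ignored.

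Cytl1 (chromosome 5, 37735519 to 37739820), a small secreted protein first described in blood progenitors and abundant in cartilage, was read at 152, 80.8 and 116 CPM in ApoE 1 to 3 and at 66.6, 41.0, 47.6 and 134 CPM in DKO 1 to 4. DKO 1 to 3 were below every library labelled ApoE-/-, and DKO 4 was the second highest of all. Its log2 difference of -0.69 (SE 0.42, edgeR adjusted p = 0.396) was -1.17 without DKO 4, with an adjusted p of 0.0675 in edgeR. The voom fit, which weights libraries, gave -1.28 with an adjusted p of 0.0354. Smooth muscle markers moved with Cytl1: all 7 were detected in every library, and their sum was 15133 to 23566 CPM in the libraries labelled ApoE-/- and 7975, 13182, 14392 and 28861 CPM in DKO 1 to 4. Per 1000 CPM of that sum, Cytl1 was 5.34 to 6.47 CPM against 8.36, 3.11, 3.30 and 4.63 CPM, again with overlap. Their part in the Cytl1 values was not tested.

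In the wider cartilage matrix list, 5 of the 7 cartilage collagens (Col2a1, Col9a1, Col9a2, Col9a3 and Col11a2) were highest in DKO 1. Col2a1, the main collagen of cartilage, was at 7.98, 2.94 and 1.58 CPM in ApoE 1 to 3 and at 286, 5.06, 3.46 and 1.69 CPM in DKO 1 to 4. Col9a1, which decorates the type II fibril, was at 13.5 CPM in DKO 1 and at 0.138 to 1.73 CPM elsewhere. In the same library Acan, Comp and Chad were each the second highest of the 7 and Sox9 the highest. The fold change of Col2a1 was 4.15 on the log2 scale (SE 2.02, edgeR adjusted p = 0.302) with DKO 1 and -0.27 without it. Col10a1, the collagen of hypertrophic chondrocytes, was high in DKO 1 but also in DKO 2 and DKO 3. It was at 25.8, 1.65 and 1.20 CPM in ApoE 1 to 3 and 82.5, 85.9, 51.5 and 0.818 CPM in DKO 1 to 4. Col11a1, a fibril collagen, was at 53.6, 37.7 and 49.9 CPM against 126, 269, 61.0 and 6.95 CPM. For Col11a1, as for Acan, DKO 2 was highest, DKO 1 next and DKO 4 lowest.

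Other matrix genes were lower in the libraries labelled double knockout without passing the test. Cilp, a protein of the cartilage intermediate layer that fibroblasts also make, was at 82.9, 64.6 and 115 CPM against 42.7, 43.5, 56.0 and 50.3 CPM (log2 fold change -0.86, SE 0.20, edgeR adjusted p = 0.146). Its relative Cilp2 was at 41.8 CPM in ApoE 3 and at 3.70 to 6.21 CPM elsewhere. Fmod, a collagen-binding proteoglycan, was at 402, 303 and 943 CPM against 276, 259, 262 and 88.5 CPM. Of the 19 genes of the list 16 were tested, 9 were positive and 7 negative, and the median log2 fold change was 0.51. In edgeR 0 were called, with 1 higher and 5 lower at an unadjusted p under 0.05. DESeq2 called Col9a1 higher and Cilp lower, and voom called Cilp and Hapln1, a cartilage link protein, lower. Without overlap there was 1 higher and 4 lower of the 16, beside 7.08% and 9.24% of all genes.

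Of the 5 tested tendon genes 4 were highest in ApoE 3, the library highest for Chad and Comp, and Scx was highest in DKO 4. Thbs4, a relative of Comp that binds the matrix of tendon and muscle, was at 48.1, 80.4 and 448 CPM in ApoE 1 to 3 and at 6.99, 6.28, 4.17 and 3.99 CPM in DKO 1 to 4. The groups did not overlap, and the log2 difference of -5.16 (SE 0.81, edgeR adjusted p = 0.110) was -3.58 without ApoE 3. Angptl7, a secreted angiopoietin-like protein, was at 57.2, 38.2 and 92.5 CPM against 14.4, 2.77, 5.99 and 8.64 CPM (log2 fold change -2.98, edgeR adjusted p = 0.120). Tnmd, a membrane protein of mature tendon, was at 30.2 CPM in ApoE 3 and at 1.48 to 7.03 CPM elsewhere. Of the 6 tendon and fibrocartilage genes 5 were tested, 5 were negative (median -2.58). In edgeR 0 were called, with 3 lower at an unadjusted p under 0.05, while DESeq2 called 3 lower (Thbs4, Angptl7 and Tnmd) and voom 2 (Thbs4 and Angptl7). The sum of the skeletal muscle markers was highest in the libraries with the most Comp and Chad. It was 112 CPM in ApoE 3 and 71.9 CPM in DKO 1, and 8.20 to 36.9 CPM elsewhere. Among the other 5 libraries the orders differed, since DKO 3 had the highest sum of these, 36.9 CPM, and the lowest Chad. Of the 7 markers, 1 was at 0 in DKO 2 and none in any other library. Smooth muscle markers ran otherwise, with the highest sum (28861 CPM) in DKO 4, the library lowest for Comp, and the lowest (7975 CPM) in DKO 1. Per 1000 CPM of that sum, Comp was at 16.2, 25.4 and 40.4 CPM against 73.1, 18.0, 17.9 and 3.29 CPM, with overlapping groups. Atrial cardiomyocyte markers were highest in ApoE 3 (848 CPM) and at 222 CPM in ApoE 2, but at 16.9 CPM in DKO 1. The part of these cell types in the values of Comp, Chad and the tendon genes was not tested.

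**Figure D4:**
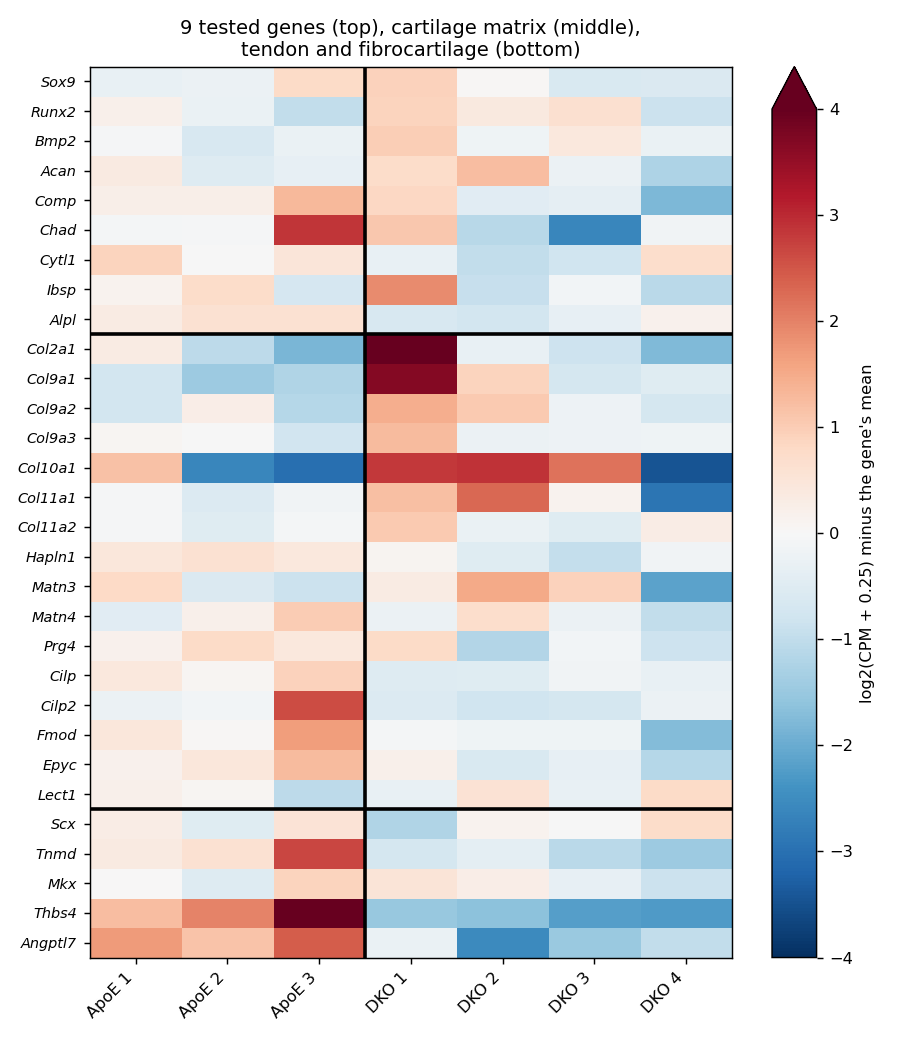
Level of each gene in each library relative to the gene's own mean over the 7 libraries, on the scale of log2(CPM + 0.25), for the 9 tested genes (top), the cartilage matrix list (middle) and the tendon and fibrocartilage list (bottom). Among the dark cells are Col2a1 and Col9a1 in DKO 1 (286 and 13.5 CPM) and Chad, Thbs4, Tnmd and Cilp2 in ApoE 3 (20.5, 448, 30.2 and 41.8 CPM). Col10a1 is also dark, above its mean in DKO 1 and DKO 2 (82.5 and 85.9 CPM) and below it in DKO 4 (0.818 CPM).

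Among the genes of mineral deposition, Ibsp (chromosome 5, 104299287 to 104311472), the bone sialoprotein that nucleates mineral, was read at 1.04, 1.70 and 0.491 CPM in ApoE 1 to 3 and at 4.12, 0.375, 0.844 and 0.307 CPM in DKO 1 to 4. DKO 1 was the highest of the 7, and the other 3 labelled double knockout lay within or below the range of those labelled ApoE-/-. A log2 difference of 0.38 (SE 0.96, edgeR adjusted p = 0.864) became -1.05 without DKO 1. Osteoblast-defining genes were near the floor in this and every other library: Sp7, the transcription factor of osteoblasts, was at 0.622 CPM in DKO 1 and at 0.0545 to 0.506 CPM elsewhere, and Bglap, osteocalcin, was at 0 to 0.153 CPM in all 7. Bone marrow markers moved with Ibsp in part, at 23.4 CPM in DKO 1 with 0 of 7 at 0, and at 5.62 to 12.1 CPM elsewhere with 1 to 4 of 7 at 0, and their part was not tested. Spp1, osteopontin, a mineral-binding protein that macrophages also make, was at 2185, 1436 and 579 CPM against 5111, 1795, 2796 and 599 CPM. Mmp9, a protease of osteoclasts and neutrophils, was at 66.9 CPM in DKO 1 and at 4.25 to 16.0 CPM elsewhere.

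Alpl (chromosome 4, 137741731 to 137796384), the tissue-nonspecific alkaline phosphatase that removes the mineral inhibitor pyrophosphate, separated the groups. It was read at 29.1, 35.8 and 35.4 CPM in ApoE 1 to 3 and at 14.8, 14.1, 18.7 and 26.2 CPM in DKO 1 to 4. All 4 libraries labelled double knockout were below all 3 labelled ApoE-/-, with DKO 4 the nearest to them. The means were 33.4 ± 3.78 CPM (SD, n = 3) and 18.4 ± 5.55 CPM (SD, n = 4), a 1.81-fold difference. A log2 difference of -0.86 (SE 0.22) resulted, which did not pass in edgeR (adjusted p = 0.157) and passed in DESeq2 (adjusted p = 0.0204) and voom (adjusted p = 0.0261). It stayed between -1.08 and -0.63 over the 17 alternatives tried, and was -0.72 without ApoE 3 and DKO 1. White adipocyte markers moved with Alpl: 6 of 6 had negative fold changes, none was at 0 in any library, and their sum was 4841 to 7197 CPM in the libraries labelled ApoE-/- and 2369 to 3697 CPM in those labelled double knockout. Within the latter, DKO 4 was highest and DKO 2 lowest for both Alpl and the markers, while within the former the orders differed. Per 1000 CPM of the summed markers, Alpl was at 4.94, 7.40 and 4.92 CPM against 5.51, 5.94, 7.41 and 7.08 CPM, and on this ratio the groups overlapped. The sum of 6 fibroblast markers was also lower without overlap (5077 to 5466 CPM against 3283 to 4730 CPM). Of these 6 genes, however, 3 had positive and 3 negative fold changes. The part of either cell type in the Alpl values was not tested.

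**Figure D5:**
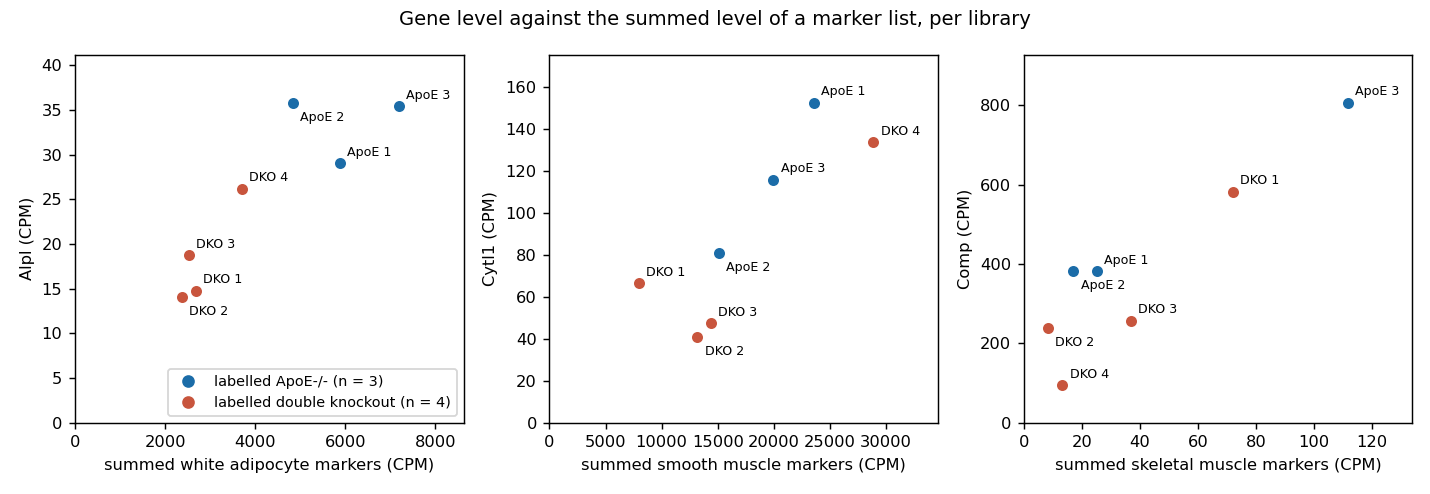
CPM of Alpl, Cytl1 and Comp (y axes) against the summed CPM of white adipocyte, smooth muscle and skeletal muscle markers (x axes), 1 point per library, with linear axes from 0. In the left panel DKO 1 to 3 have 14.1 to 18.7 CPM of Alpl at the lowest adipocyte sums, and in the right panel ApoE 3 and DKO 1 hold the highest values of both measures.

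The enzymes and inhibitors around Alpl did not move with it as a list. Enpp1, which makes pyrophosphate and so opposes Alpl, had a log2 fold change of 0.56 (SE 0.19, edgeR adjusted p = 0.180), with values of 85.9, 59.2 and 55.6 CPM against 119.9, 93.9, 85.1 and 94.7 CPM. Slc20a1, a phosphate transporter, was at 44.1 to 50.8 CPM against 47.9 to 85.5 CPM. Mgp, the matrix protein that protects arteries from calcification, was abundant in all libraries at 3672 to 6187 CPM. Of 10 such genes 5 were positive and 5 negative, and the median log2 fold change was -0.02. In edgeR and voom 0 were called, with 2 higher at an unadjusted edgeR p under 0.05, and DESeq2 called 1 higher, Enpp1 (adjusted p = 0.0464). Phospho1, a phosphatase that works beside Alpl in matrix vesicles, was at 54.1, 37.6 and 94.4 CPM against 31.3, 25.4, 25.9 and 52.1 CPM, and Omd, a bone proteoglycan, was at 8.55 to 10.6 CPM against 4.27 to 7.47 CPM. Of the 17 osteoblast and bone matrix genes 12 were tested, 7 were positive and 5 negative (median 0.12). There edgeR and DESeq2 called 0, with 2 lower at an unadjusted edgeR p under 0.05, and voom called 2 lower, Omd and Phospho1.

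Regulators of chondrocytes and genes of osteoclasts gave 0 calls in edgeR and a few with the other tools. Fgfr3, the receptor that slows cartilage growth, was at 19.1, 16.8 and 14.6 CPM against 11.6, 7.22, 7.68 and 8.44 CPM (log2 fold change -0.95, SE 0.19, edgeR adjusted p = 0.132). Pthlh, a secreted brake on chondrocyte maturation, was at 7.26 to 17.7 CPM against 3.69 to 7.26 CPM. Of the 12 chondrocyte regulators 10 were tested, 4 were positive and 6 negative (median -0.17), with 1 higher and 3 lower at an unadjusted edgeR p under 0.05. DESeq2 called Fgfr3 lower, and voom called Fgfr3 and Gdf5, a ligand of joint formation, lower. Itgb3, an integrin of osteoclasts, platelets and smooth muscle, was at 81.8, 61.8 and 72.3 CPM against 132, 164, 158 and 182 CPM, without overlap (log2 fold change 1.14, SE 0.14, edgeR adjusted p = 0.0994). Of the 12 osteoclast genes 10 were tested, 7 were positive and 3 negative (median 0.51), with 1 higher at an unadjusted edgeR p under 0.05. DESeq2, voom and limma on log2(FPKM + 1) each called 1 higher, Itgb3.

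The genes whose pattern over the 7 libraries was most like each of the 9 tested genes differed from one to the next. Likeness was the root mean square difference of log2 CPM centred on each gene's mean, among 13910 genes, and it is a description: all genes of a library share its depth and its cell composition, which differed between libraries. Nearest to Alpl were Pon1, Ang and Cfd, the last an abundant adipocyte gene, at differences of 0.10, 0.12 and 0.13, where Alpl itself varied by 0.52 around its mean. Cfd was at 2335, 3197 and 3478 CPM in ApoE 1 to 3 and at 1409, 1524, 1797 and 2675 CPM in DKO 1 to 4. Nearest to Cytl1 were Alx4, Hspb7 and Gm40011 (0.16 to 0.20, own variation 0.68), with Hspb7, a muscle heat shock protein, at 694, 440.2 and 583 CPM against 281, 244, 247 and 542 CPM. Bmp2 was nearest to Gadd45a, Upp1 and Kit (0.15 to 0.16, own variation 0.51), and Runx2 to LOC100038947, Rapgef4 and Arl4c (0.17 to 0.19, own variation 0.68). For Acan these were Tfr2, P4ha3 and Capn6 (0.17 to 0.31, own variation 0.77). Comp had the cartilage proteoglycan Epyc among its 3 nearest, with Uts2r and Lrrn4 (0.30 to 0.34, own variation 0.93). Sox9 (Car2, Fndc1 and Tll1), Chad (Ttc25, Slc2a5 and Elovl3) and Ibsp (Gpr141, Cxcl14 and F5) had nearest differences of 0.28, 0.57 and 0.45 against own variations of 0.59, 1.72 and 1.10.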

How the data were processed

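Libraries were made with a TruSeq Stranded mRNA kit, per the labels' protocols. Trimmomatic, HISAT2, HTSeq, Cufflinks and DESeq are named against GRCm38.p6 in the submitters' processing notes, without versions or roles; annotation, filters and strand setting: not given in the sources used here. The deposited gene counts are whole numbers that the authors did not normalize, and the deposited FPKM values are scaled by the authors for gene length and depth. Symbols turned into dates (27) were restored by gene identifier.

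Counts of the 7 libraries (19295287 to 21727192) were scaled by TMM, filtered with filterByExpr (minimum count 10; 14609 of 21878 genes left) and tested with edgeR 4.0.16's quasi-likelihood test in R 4.3.3, with Benjamini-Hochberg adjustment over all tested genes and a threshold of 0.05. SE was taken as the size of the log2 fold change divided by √F. CPM use TMM-scaled sizes, and likeness a prior count of 2. Alternatives were RLE scaling, DESeq2 1.42.0, limma 3.58.1 voom with quality weights, other filters, the replicate number as a block, limma on log2 FPKM (pseudocounts 1 and 0.1), and each library left out; leaving out ApoE 3 and DKO 1 together was chosen after seeing the data.

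The 10 genes and the lists were chosen with earlier results of these data known. Named from each pathway list were its genes past the threshold or, with none, the 2 with the smallest p; Col2a1, Col9a1, Col9a2, Col9a3, Col10a1, Col11a1, Col11a2, Fmod, Spp1, Tnmd, Runx1, Twist1, Twist2, Hdac4, Zfp521, Sox5, Sox6, Sp7, Bglap, Mgp, Scx, Smad9, Hapln1 and Gdf5 were named after their values were seen, as were the marker ratios. Overlaps of genes are from GENCODE M21, promoters from RefSeq, both on GRCm38.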

Additional observations from a re-analysis of the deposited data

Results flagged for a closer look

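Of 41 genes examined within the 4 libraries labelled double knockout, 5 had 1 library far from the other 3, by the gap to its nearest neighbour over the whole range. Chance meets this criterion in about 1 of 20 groups. The 41 included genes named after their values were seen, Col2a1 and Col9a1 among them, so the 5 cannot be compared with that rate. Ibsp was at 4.12 CPM in DKO 1, where the other 3 had 0.307 to 0.844 CPM. In the same library Col2a1 was at 286 CPM, where the others had 1.69 to 5.06 CPM, Col9a1 at 13.5 CPM, where they had 0.400 to 1.73 CPM, and Mmp9 at 66.9 CPM, where they had 8.08 to 16.0 CPM. Bmp3 was at 11.7 CPM in DKO 2 and at 7.41 to 7.71 CPM in the others, and remained below the 16.1 CPM of the lowest library labelled ApoE-/-. Groups of 3 libraries were not examined in this way.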

How the results depend on the processing

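None of the 9 tested genes was called higher under any alternative. Called lower were 1 with DESeq2 and 2 with voom. Over all genes, edgeR called 0 higher and 4 lower, DESeq2 461 and 681, and voom 902 and 1467. On log2 FPKM, 1 gene was higher with either pseudocount, and 0 were lower with no filter. Leaving out each library in turn gave 0 to 4 higher and 0 to 2 lower, and leaving out ApoE 3 and DKO 1 together gave 2 higher and 0 lower. Besides Alpl (all 17 alternatives negative), Runx2, Acan, Bmp2, Comp, Cytl1 and Chad kept their direction under every alternative in which they were tested.

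Direction changed for Sox9 (0.074 with the replicate block, 0.38 without ApoE 3, 0.11 without DKO 3 and 0.11 without DKO 4), for Ibsp (-0.18 with voom, -1.05 without DKO 1 and -1.41 without ApoE 3 and DKO 1), for Col2a1 (-0.27 without DKO 1 and -0.68 without both) and for Spp1 (-0.066 without both). Leaving out each library in turn gave -0.51 to 0.38 for Sox9, -1.05 to 0.87 for Ibsp and -0.27 to 5.02 for Col2a1. With the replicate block, DKO 4 adds nothing to the estimated group difference. Its Sox9 value is therefore not separate from the one without DKO 4. Except where a library was left out, the cause of the other changes was not tested.

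The replicate numbers were not shown to pair the libraries. Deviations of same-numbered libraries correlated at -0.39, 0.70 and 0.0036, and 1 of the 3 labelled ApoE-/- correlated best with its own number. The replicate block keeps all 7 libraries in the fit, but no library labelled ApoE-/- shares the number of DKO 4. DKO 4 thus adds nothing to the estimated group difference, which rests on the 3 numbers found in both groups. With this block 0 of the 9 genes were called and 0 of all genes were lower. Low counts limit Msx2, Ibsp and Chad.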
